A study of Mus musculus with 12 samples.

Results

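The genotype by treatment interaction asks whether Nutlin-3 was followed by a different change in the hippocampus of Fmr1 KO mice than in that of WT mice. It was computed for each gene as (KO-Nut3 minus KO-Veh) minus (WT-Nut3 minus WT-Veh) on the log2 scale, so a positive value is a change that is more upward, or less downward, in KO mice. All 12 poly(A) RNA libraries of the series entered, 3 in each of the KO-Nut3, KO-Veh, WT-Nut3 and WT-Veh groups, and 22592 of the 55421 listed genes, those with more than 20 counts in total, were tested. WT-Veh and WT-Nut3 mice carried wild-type Fmr1 and received vehicle or Nutlin-3, and KO-Veh and KO-Nut3 mice lacked functional Fmr1 and received the same agents. All 4 groups were injected intraperitoneally at 2 months and killed at 6 months of age, and according to the methods all mice were on a C57BL/6 background. Loss of Fmr1 is not restricted to a cell type in this model, and the tissue is whole dissected hippocampus, so fewer cells of a type and less RNA per cell cannot be told apart. The labels number the libraries RH1 to RH16 but do not state separate animals, so P-values measure the spread between libraries. Each library held between 17150820 and 20040482 reads on genes.

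Nutlin-3 blocks the p53-binding pocket of MDM2, the ubiquitin ligase that marks p53 for degradation. FMRP, the product of Fmr1, is an RNA-binding protein that represses translation of its target mRNAs at synapses and in neural progenitors, and Mdm2 is one of those targets. Progenitors of the dentate gyrus lie in a niche of blood vessels, astrocytes and secreted factors such as BMPs, which hold neural stem cells in quiescence. The choroid plexus and the meninges, which secrete BMPs, IGF2 and retinoids, border the hippocampus.

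Fmr1 mRNA followed the labels in every library. It was at 79.5, 75.3 and 77.7 CPM (counts relative to all reads on genes, scaled with TMM factors) in WT-Veh, and at 75.2, 74.0 and 78.3 CPM in WT-Nut3. It was at 32.7, 32.5 and 37.3 CPM in KO-Veh, and at 30.6, 28.5 and 35.7 CPM in KO-Nut3. All KO libraries lay below all WT libraries, some transcript was still counted in the KO, and its interaction was -0.08 ± 0.11 (log2, SE). That interaction was -0.18 without KO-Nut3 RH13 and -0.012 without KO-Nut3 RH8. The labelled tissue matched its markers, since the CA pyramidal transcription factor gene Neurod6 lay between 96.7 and 186 CPM in the 12 libraries and the dentate granule factor gene Prox1 between 91.9 and 137 CPM.

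Before the results, 5 libraries have to be named that stood apart in genes of tissue bordering the hippocampus. The 25 choroid plexus genes, of which the transthyretin gene Ttr held most reads, summed to 5340, 743 and 7343 CPM in KO-Nut3 RH6, RH8 and RH13 and to 6862 CPM in WT-Nut3 RH9. In the other 8 libraries they summed to between 165 and 236 CPM. The 19 genes of meningeal and stromal fibroblasts, of which the decorin gene Dcn held most reads, summed to 318 CPM in WT-Veh RH5 and, among KO-Nut3, to 420 CPM in RH8 and 222 CPM in RH6, against 85.5 to 162 CPM in the other 9. Choroid plexus genes were thus high in all 3 KO-Nut3 libraries and in 1 WT-Nut3 library, and fibroblast genes were high in 1 WT library that had received vehicle. KO-Nut3 RH6 also held the thalamic glutamate transporter gene Slc17a6 at 113 CPM, against 8.42 to 22.2 CPM in the other 11, and Neurod6 at its lowest.

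**Figure D1:**
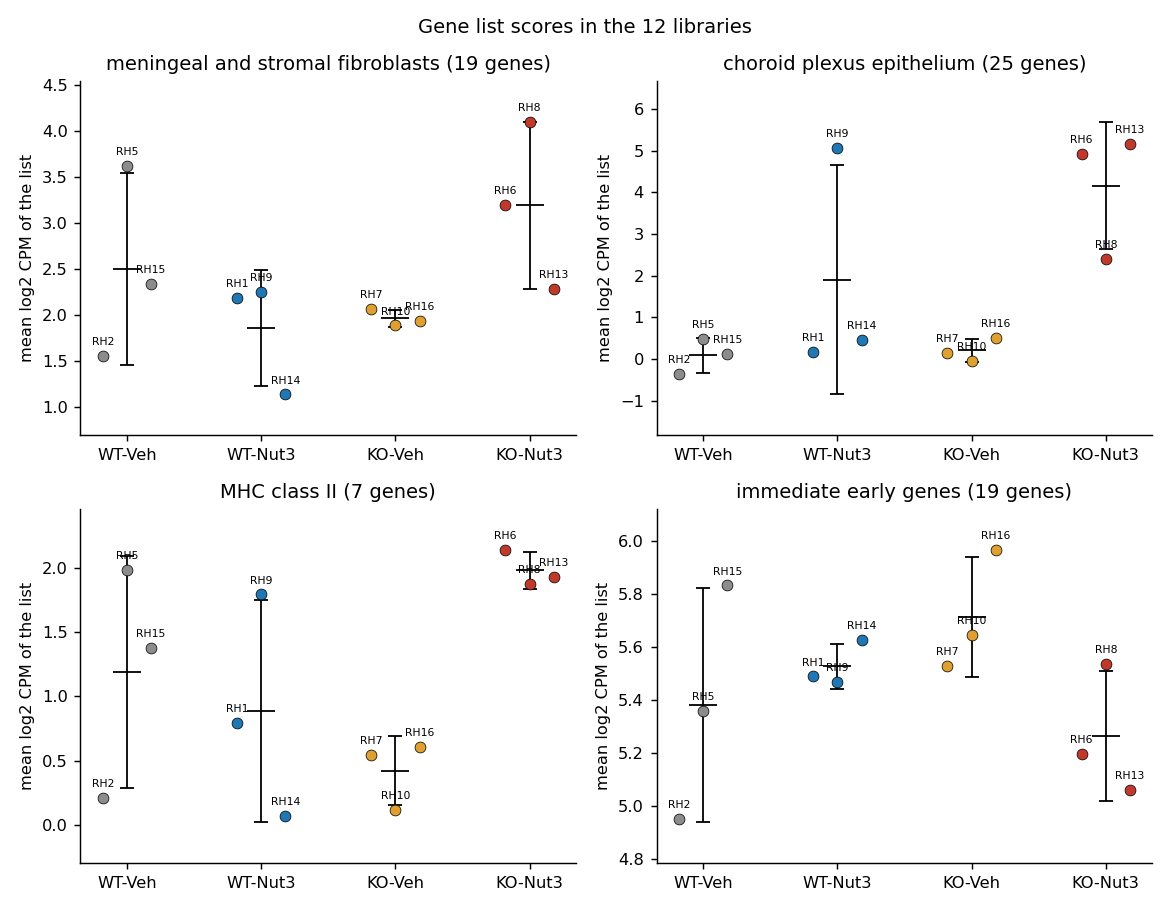
Mean log2 CPM of the genes of 4 lists (vertical axis) in the 12 libraries by group (horizontal axis); points are libraries with their numbers, and bars are the mean ± SD of 3 libraries. Fibroblast genes peak in WT-Veh RH5 and KO-Nut3 RH8, choroid plexus genes are high in WT-Nut3 RH9 and all of KO-Nut3, MHC class II genes are low in all of KO-Veh, and immediate early genes are lowest in WT-Veh RH2 and KO-Nut3 RH13.

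No gene passed for a difference in response between the genotypes. With edgeR's quasi-likelihood test and Benjamini-Hochberg adjustment, 0 of 22592 genes (0%) had an adjusted P-value under 0.05. The smallest adjusted P was 0.126, for Gm21887, and the next was 0.994. DESeq2 called 1 gene, Gm21887, and limma-voom called 0. At an unadjusted P under 0.05 there were 942 genes (4.17% of those tested) of which 656 were positive (2.9%) and 286 negative (1.27%). At that threshold DESeq2 gave 660 genes and limma-voom 894. Everything that follows is therefore a description of values, and no single gene is claimed to differ in response.

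The direction of the interaction chose these genes, so their signs in KO and WT are a description. Of the 656 positive genes, 569 were higher after Nutlin-3 in KO and lower in WT by the fitted values, 85 were higher in both and 2 were lower in both. Their median interaction was 1.24, with a median KO change of 0.81 and a median WT change of -0.32. WT-Veh RH5 was the highest of the 6 WT libraries in 283 of them, and KO-Nut3 RH8 the highest of all 12 in 183. Of the 286 negative genes, 278 were lower after Nutlin-3 in KO and higher in WT, with medians of -0.81 for the interaction, -0.37 in KO and 0.28 in WT. In the same fit of 12 libraries, the KO arm alone had 1994 genes at an unadjusted P under 0.05 (8.83%). The WT arm had 708 (3.13%). Neither arm had a gene past the adjusted threshold of this edgeR fit, with smallest adjusted P-values of 0.148 and 0.999. The study compared the KO libraries alone with DESeq2 and reported differentially expressed genes between the treatments. That test was not run here. The absence of calls in KO holds only for the present fit, whose spread is estimated over both genotypes. Without WT-Nut3 RH9, which is not a library of the KO arm but shares its estimate of spread, 107 genes passed in KO by edgeR's quasi-likelihood test with Benjamini-Hochberg adjustment. KO-Nut3 lay above KO-Veh in every library for 1774 genes (7.85%) and below it for 1230 (5.44%), and WT-Nut3 lay above WT-Veh for 814 (3.6%) and below it for 886 (3.92%).

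The limit of the test can be read from its errors. Among the 15346 genes with a mean of at least 1 CPM, the median SE of the interaction was 0.159, against 0.113 for the KO change and 0.112 for the WT change. The median 95% interval reached 0.341 to either side, and 14282 of these genes (93.1%) had an interval narrower than 1 log2 unit to either side. The interval of choroid plexus genes reached a median of 4.32 to either side, and that of MHC class II genes 1.62.

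**Figure D2:**
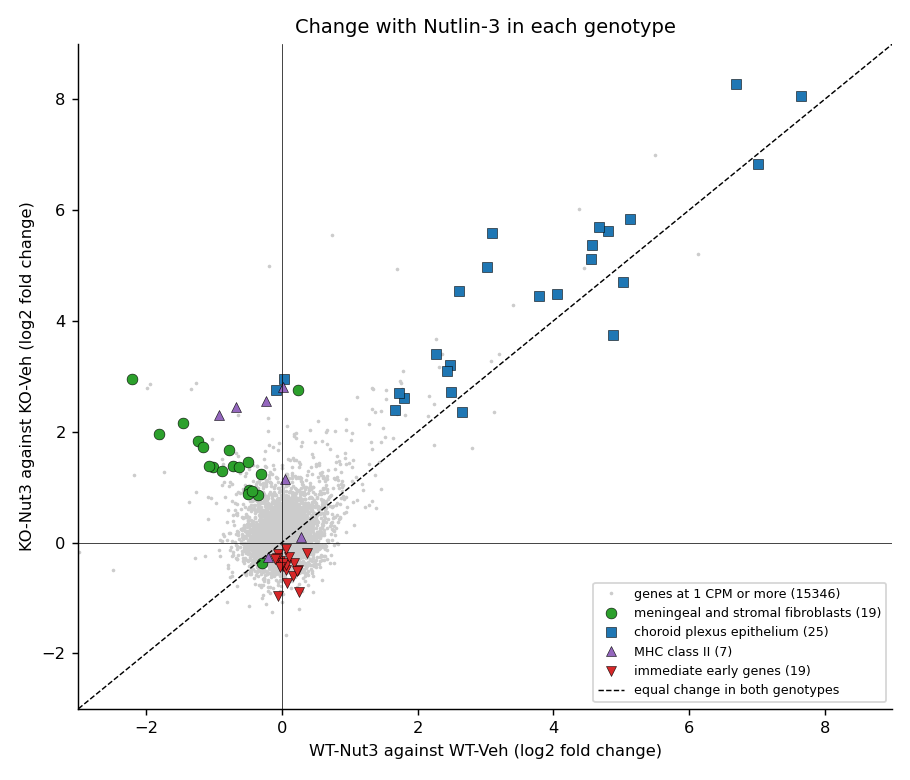
Log2 fold change with Nutlin-3 in WT (horizontal axis) and in KO (vertical axis) for genes at 1 CPM or more and for the members of 4 lists; the dashed line is an equal change in both genotypes, and 10 genes lie outside the axes. Most choroid plexus genes lie near the line with large changes in both genotypes, in WT mostly through WT-Nut3 RH9. All but 2 fibroblast genes lie to the upper left, and all immediate early genes lie below 0 in KO.

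Tgfbr2, the type II receptor that binds TGF-beta ligands, had the smallest unadjusted P among positive genes with a mean of at least 1 CPM. It lies on chr9:116084293-116175360 (mm10, GENCODE M21, minus strand). Its level was 19.5, 22.9 and 21.2 CPM in WT-Veh and 20.8, 21.7 and 21.4 CPM in WT-Nut3. It was 16.1, 16.2 and 18.6 CPM in KO-Veh and 25.9, 24.6 and 25.8 CPM in KO-Nut3. All KO-Nut3 libraries were above every other library and all KO-Veh libraries below every other, while the WT groups overlapped. The log2 change was 0.58 in KO and 0.01 in WT, and the interaction was 0.58 ± 0.12 (unadjusted P = 0.000332, adjusted P = 0.994). It kept its direction with each library left out, between 0.52 and 0.65, and was 0.47 with the choroid plexus and fibroblast scores as terms.

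Among the 43 TGF-beta and BMP signaling genes, 11 had a positive interaction at an unadjusted P under 0.05 (2.9% of all genes tested did) and 0 a negative one (1.27% did). The list median was 0.08 against 0.0075 over all genes tested, and 0.026 without WT-Veh RH5. Of the ligands, Bmp6 (chr13:38345107-38500302, plus strand) was at 6.27, 18.3 and 7.78 CPM in WT-Veh and at 8.67, 21.4 and 6.56 CPM in WT-Nut3. It was at 7.64, 5.19 and 6.72 CPM in KO-Veh and at 24.3, 26.3 and 23.9 CPM in KO-Nut3. The KO-Nut3 libraries were above all others, and the high WT libraries were RH5 and RH9, those high in fibroblast or choroid plexus genes. The interaction of Bmp6 was 1.75 ± 0.57 (unadjusted P = 0.00806), and the other ligand genes Bmp4, Bmp5 and Bmp7 had 1.44 ± 0.47, 1.72 ± 0.70 and 1.53 ± 0.64. Without WT-Veh RH5 Bmp6 had 1.13 and Bmp7 0.81, and with both scores as terms Bmp6 had 0.21, Bmp5 -0.028 and Bmp7 -0.57. Of the receptors, the endothelial co-receptor gene Eng had 0.39 ± 0.15 and its partner Acvrl1 0.56 ± 0.23, and the BMP receptor gene Bmpr2, with most reads of the list, had -0.07 ± 0.08. Of intracellular members, the inhibitory Smad6 had 1.46 ± 0.45, the endocytic adaptor Dab2 1.42 ± 0.46 and the target gene Id3 0.46 ± 0.16. The secreted inhibitor gene Wfikkn2, which is also a choroid plexus gene, had 2.92 ± 0.99, and 1.30 without WT-Veh RH5. Without WT-Veh RH5 and KO-Nut3 RH8, 4 of the 43 were at an unadjusted P under 0.05 in the positive direction, where 2.36% of all genes tested were. Without WT-Veh RH5 alone 7 were (1.95%), and with both scores as terms 2 (1.5%).

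Fibroblast genes gave the highest count. Of the 19 members, 18 were positive and 17 were positive at an unadjusted P under 0.05, where 2.9% of all genes tested were, and their median interaction was 2.17. Their median change was 1.37 in KO and -0.71 in WT. Lum (chr10:97565128-97572703, plus strand), which codes for the collagen-binding proteoglycan lumican, was at 3.64, 4.47 and 3.35 CPM in WT-Veh and at 2.38, 3.63 and 2.07 CPM in WT-Nut3. It was at 2.74, 3.10 and 3.13 CPM in KO-Veh and at 5.05, 6.42 and 5.11 CPM in KO-Nut3. The KO groups did not overlap, the WT groups did, and the interaction was 1.38 ± 0.31 (unadjusted P = 0.000462). Fmod, the related proteoglycan fibromodulin, was at 3.46, 29.9 and 10.3 CPM in WT-Veh and at 5.53, 8.59 and 1.68 CPM in WT-Nut3. It was at 6.25, 5.58 and 4.61 CPM in KO-Veh and at 20.6, 48.2 and 4.56 CPM in KO-Nut3, an interaction of 3.61 ± 1.08. For Fmod both genotypes overlapped between treatments, and the values turn on WT-Veh RH5 and on KO-Nut3 RH6 and RH8. The matrix genes Islr and Ogn had 1.37 ± 0.33 and 2.44 ± 0.64, the type I collagen gene Col1a2 2.10 ± 0.65 (1.27 without WT-Veh RH5), and the transporter genes Slc13a3 and Slc47a1 2.17 ± 0.56 and 5.16 ± 1.48. Dcn, also made by other cells of the brain, was the exception at -0.07 ± 0.39.

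The size of the fibroblast values depended on 2 libraries. Without WT-Veh RH5 the list median was 1.27 with 12 members positive at an unadjusted P under 0.05 (1.95% of all genes tested in that fit), and without KO-Nut3 RH8 it was 1.62 with 16 (3.44%). Without both it was 0.91 with 4 (2.36%), and in the fit with the choroid plexus and fibroblast scores as terms it was -0.024 with 2 (1.5%), a fit in which the score is made of these same genes. The part that variable meningeal tissue plays in these values was not tested. Other genes named for their P-values had like patterns. They were the transcription factor gene Foxc2 of mesenchyme (4.81 ± 1.13), the peptidase gene Anpep (2.04 ± 0.49), the collagen receptor gene Mrc2 (1.79 ± 0.44), the matrix gene Thbs2 (1.54 ± 0.40) and Egflam, a matrix protein gene (1.29 ± 0.34). In each of these the KO groups did not overlap, the WT groups did, and WT-Veh RH5 was the highest WT library. Foxc2 rested on few reads, with 2, 7 and 6 in KO-Veh and 10, 11 and 3 in WT-Nut3, and had 3.99 without WT-Veh RH5. Bche, which codes for butyrylcholinesterase, had 1.18 ± 0.31 and Arhgap25 had 1.56 ± 0.42. Arhgap25 was at 3.58, 3.31 and 3.55 CPM in WT-Veh, 2.84, 1.54 and 2.30 CPM in WT-Nut3, 1.34, 1.69 and 1.99 CPM in KO-Veh and 4.44, 3.15 and 1.92 CPM in KO-Nut3. Its WT-Nut3 libraries all lay below WT-Veh, and its KO groups overlapped.

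Extracellular matrix genes were mostly positive. Of 40 members 34 were positive, 15 of them at an unadjusted P under 0.05, where 11598 and 656 (2.9%) of all 22592 genes tested were, and the median was 0.54, with a KO median of 0.45 and a WT median of -0.07. The collagen gene Col12a1 had 0.81 ± 0.23 and the basement membrane laminin gene Lamb2 0.65 ± 0.19. Lamb2 was at 32.4, 44.8 and 34.1 CPM in WT-Veh, 38.2, 34.2 and 29.8 CPM in WT-Nut3, 35.6, 26.8 and 31.2 CPM in KO-Veh, and 46.8, 48.9 and 39.6 CPM in KO-Nut3. Its KO groups did not overlap and its WT groups did. Timp3, an inhibitor of matrix metalloproteinases, had 0.56 ± 0.26 (unadjusted P = 0.047). Without WT-Veh RH5 the count of positive members at that threshold was 5 (1.95% of all genes tested in that fit), and without both WT-Veh RH5 and KO-Nut3 RH8 it was 3 (2.36%). It was 9 without WT-Nut3 RH14 (2.01%), KO-Veh RH7 (2.91%) or KO-Veh RH10 (2.14%), and 1 with both scores as terms (1.5%).

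Choroid plexus genes had large differences between Nutlin-3 and vehicle in both genotypes, in WT mostly through WT-Nut3 RH9, and an interaction that was small beside its error. Their mean log2 CPM was 0.18 and 0.46 in WT-Nut3 RH1 and RH14, against -0.35 to 0.49 in WT-Veh and 5.07 in WT-Nut3 RH9. All 25 members were higher after Nutlin-3 in KO and 24 in WT by the fitted values, KO-Nut3 lay above KO-Veh in every library for 24 (7.85% of all genes tested), and WT-Nut3 above WT-Veh for 6 (3.6%). The median change was 4.48 in KO and 3.10 in WT, and the median interaction was 0.72. Ttr was at 6.39, 9.56 and 5.15 CPM in WT-Veh and at 12.9, 4215 and 18.2 CPM in WT-Nut3. It was at 3.15, 11.6 and 15.2 CPM in KO-Veh and at 3091, 314 and 4520 CPM in KO-Nut3. All 3 WT-Nut3 libraries lay above WT-Veh, RH9 far more than the other two, and the interaction of Ttr was 0.41 ± 2.31 (95% interval -4.54 to 5.36). Without WT-Nut3 RH9 the list median was 3.97, with 21 of the 25 positive at an unadjusted P under 0.05, where 3.95% of all genes tested in that fit were. Of genes followed up in the study, the water channel gene Aqp1 had 0.80 ± 2.44 and the lysophospholipase gene Enpp2 0.72 ± 1.08. The collagen gene Col8a1 had 1.93 ± 1.65, and the secreted angiopoietin-like gene Angptl2, which is not on this list, 1.29 ± 0.84. None of these was at an unadjusted P under 0.05. Bmp6, Igf2, Timp3 and Gm21887, which the study also followed up, were under it, Gm21887 with a negative value. Like Ttr, the genes Aqp1, Enpp2, Col8a1 and Angptl2 turned on WT-Nut3 RH9. Without that library Ttr had 6.93, Aqp1 5.28, Enpp2 2.88, Col8a1 5.44 and Angptl2 2.68, with 0 genes past the adjusted threshold of edgeR's quasi-likelihood test in that fit. Without WT-Veh RH5 Angptl2 had 0.53, and without WT-Nut3 RH1 Aqp1 had 0.23 and Enpp2 0.23. The membrane protein gene Tmem72 was at 0.12, 0.21 and 0.26 CPM in WT-Veh, 0.36, 62.5 and 0.39 CPM in WT-Nut3, 0.15, 0.11 and 0.11 CPM in KO-Veh and 53.3, 4.18 and 67.5 CPM in KO-Nut3. KO-Veh was at the floor of 3 counts, so no fold is given for it.

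The 2 choroid plexus genes with a positive interaction at that threshold were Wfikkn2 and the sulfate transporter gene Slc13a4 (2.83 ± 1.03). Of all genes tested 2.9% were positive at it. Without WT-Veh RH5 there were 0 in the list, and 1.95% of all genes tested. Slc13a4 was at 2.87, 25.1 and 7.16 CPM in WT-Veh and at 4.46, 26.1 and 2.41 CPM in WT-Nut3. It was at 7.28, 4.23 and 3.82 CPM in KO-Veh and at 36.7, 37.3 and 29.4 CPM in KO-Nut3. Unlike Ttr it was also high in WT-Veh RH5, the library high in fibroblast genes. Igf2, the fetal growth factor made by choroid plexus and meninges in the adult brain, was at 0.30, 3.26 and 0.77 CPM in WT-Veh and at 1.01, 3.83 and 0.28 CPM in WT-Nut3. It was at 1.03, 0.56 and 0.68 CPM in KO-Veh and at 5.43, 5.84 and 4.28 CPM in KO-Nut3, an interaction of 2.51 ± 1.05 (unadjusted P = 0.0311). The KO-Nut3 libraries were above all others. Igf2, which is also on the fibroblast list, was the 1 of 16 IGF system genes past that threshold, the list median was 0.18 (0.079 without WT-Veh RH2), and the binding protein gene Igfbp2 had 1.09 ± 0.75, and 2.46 without WT-Nut3 RH9. Without WT-Veh RH5 Igf2 had 1.10 and Slc13a4 1.62, without WT-Nut3 RH9 they had 3.89 and 4.51, and with both scores as terms -0.55 and -0.031.

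**Figure D3:**
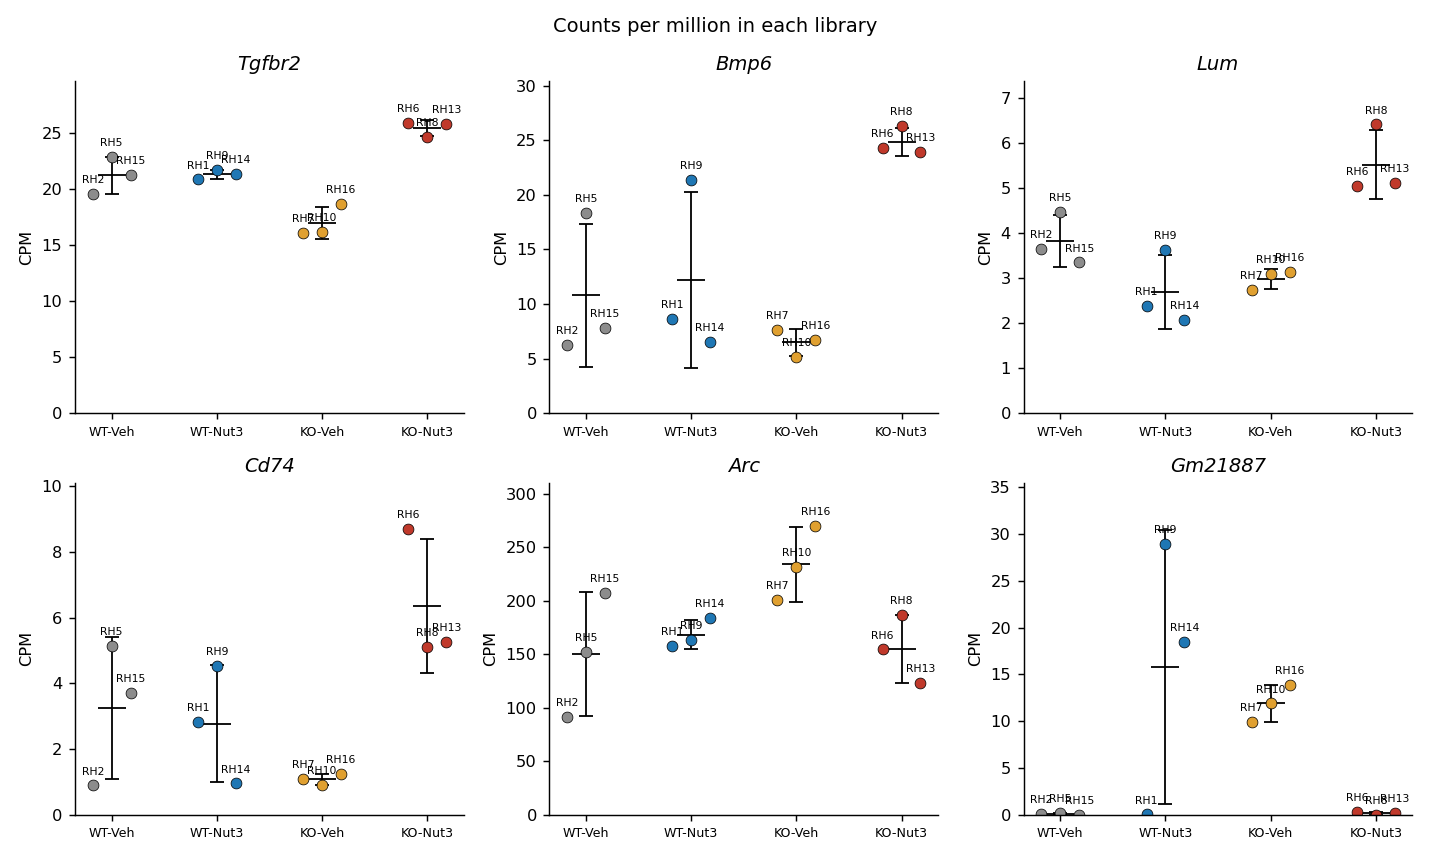
CPM of 6 genes (vertical axes, starting at 0) in the 12 libraries by group (horizontal axes); points are libraries with their numbers, and bars are the mean ± SD of 3 libraries. Tgfbr2 separates KO-Nut3 (24.6 to 25.9 CPM) from KO-Veh (16.1 to 18.6 CPM) with WT in between, Bmp6 and Cd74 are also high in WT-Veh RH5 and WT-Nut3 RH9, and Gm21887 is near 0 in 7 libraries.

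MHC class II genes, which present antigen on macrophages and dendritic cells and sit at the borders of the brain, had a median interaction of 2.78 over 7 members, with a KO median of 2.30 and a WT median of -0.21. Of these, 4 were positive at an unadjusted P under 0.05, where 2.9% of all genes tested were. Cd74, the invariant chain, was at 0.90, 5.15 and 3.71 CPM in WT-Veh and at 2.84, 4.52 and 0.95 CPM in WT-Nut3. It was at 1.08, 0.90 and 1.25 CPM in KO-Veh and at 8.71, 5.10 and 5.27 CPM in KO-Nut3. The 3 KO-Veh libraries were near the 2 lowest WT libraries, and WT-Veh RH5 reached the level of KO-Nut3. The interaction was 2.78 ± 0.76 (unadjusted P = 0.00239) for Cd74, 3.22 ± 0.91 for H2-Ab1, 3.13 ± 0.98 for H2-Aa and 2.78 ± 1.08 for H2-Eb1, the chains of the class II molecules. The peptide-loading genes H2-DMb1 and H2-DMa had 1.11 ± 0.60 and -0.04 ± 0.15, and Ciita, the transactivator of the class, had -0.19 ± 0.31. H2-DMb1 had 0.71 without KO-Veh RH10, H2-DMa ran from -0.13 to 0.017 with each library left out, and Ciita had -0.017 without WT-Veh RH2 and -0.35 without KO-Veh RH7. Without WT-Nut3 RH9 H2-Aa had 4.87 and H2-Eb1 4.37. Without WT-Veh RH5 H2-Eb1 had 1.75. The list median in that fit was 1.75 with 3 members at that threshold (1.95% of all genes tested). With both scores as terms it was 0.49 with 0 (1.5%). The microglia list, 10 genes, had a median of -0.0024, from -0.071 to 0.065 with each library left out, and no member at that threshold.

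Vascular genes had smaller positive values. Of 13 endothelial genes 12 were positive, 5 of them at an unadjusted P under 0.05 (2.9% of all genes tested were), with a median of 0.38, and of 10 mural genes 9 were positive and 2 at that threshold, with a median of 0.43 (0.31 with members at the floor of 3 counts set to their bound, and 0.28 without WT-Veh RH5). Pecam1, the endothelial adhesion molecule, was at 20.4, 21.6 and 18.2 CPM in WT-Veh, 16.8, 17.2 and 18 CPM in WT-Nut3, 17.4, 15.7 and 18 CPM in KO-Veh and 19.6, 22.3 and 19.1 CPM in KO-Nut3. WT-Nut3 lay below WT-Veh and KO-Nut3 above KO-Veh without overlap, with log2 changes of -0.21 and 0.26 and an interaction of 0.47 ± 0.14 (unadjusted P = 0.0044). The junction gene Cdh5 had 0.63 ± 0.19, the transporter genes Slco1a4 and Abcb1a 0.44 ± 0.15 and 0.52 ± 0.23, and the VEGF receptor gene Kdr 0.52 ± 0.19. Without WT-Veh RH15 Abcb1a had 0.34. Of mural genes, Vtn had 0.85 ± 0.25 and the pericyte receptor gene Pdgfrb 0.49 ± 0.20. With each library left out, 4 to 6 endothelial and 1 to 3 mural genes were positive at that threshold. Of all genes tested in those fits, 1.95% to 3.95% were. Without WT-Veh RH5 and KO-Nut3 RH8 together there were 5 and 1 (2.36% of all genes tested in that fit), and with both scores as terms 1 and 0 (1.5%).

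Immediate early genes, which neurons transcribe within minutes of activity, had the lowest median of the 28 lists. All 19 were negative, 5 of them at an unadjusted P under 0.05, where 1.27% of all genes tested were, and the median interaction was -0.45. The median change was -0.40 in KO and 0.06 in WT, and KO-Nut3 lay below KO-Veh in every library for 7 members, and for 5.44% of all genes tested. Upstream of some of these genes CREB acts through the cAMP response element TGACGTCA. RefSeq promoter windows (GRCm38.p6, 250 bases before to 50 after the start) were matched for 15 of the 19 genes, and those of the 3 genes that are among the 5 and hold the first 5 bases of that element are shown, with TGACG and its reverse complement CGTCA in capitals.

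Junb, chr8:84978699-84978998 (minus strand): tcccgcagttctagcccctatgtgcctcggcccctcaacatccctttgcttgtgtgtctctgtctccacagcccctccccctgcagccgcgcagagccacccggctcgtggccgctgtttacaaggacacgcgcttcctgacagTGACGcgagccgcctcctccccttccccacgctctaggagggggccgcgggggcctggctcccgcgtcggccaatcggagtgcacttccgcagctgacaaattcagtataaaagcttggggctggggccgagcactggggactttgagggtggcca

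Npas4, chr19:4989922-4990221 (minus strand): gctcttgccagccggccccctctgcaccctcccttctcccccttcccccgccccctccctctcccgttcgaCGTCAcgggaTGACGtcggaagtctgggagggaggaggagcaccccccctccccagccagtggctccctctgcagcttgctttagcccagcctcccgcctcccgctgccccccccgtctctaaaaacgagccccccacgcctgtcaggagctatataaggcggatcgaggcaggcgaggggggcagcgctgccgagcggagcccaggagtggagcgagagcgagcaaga

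Egr4, chr6:85513540-85513839 (minus strand): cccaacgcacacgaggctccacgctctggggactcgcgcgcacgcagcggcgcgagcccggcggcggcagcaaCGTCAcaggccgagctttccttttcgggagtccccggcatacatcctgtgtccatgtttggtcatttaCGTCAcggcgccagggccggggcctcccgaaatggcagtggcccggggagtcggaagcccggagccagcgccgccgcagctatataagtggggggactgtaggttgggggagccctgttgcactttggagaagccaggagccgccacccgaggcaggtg

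The 5 bases occurred on either strand in 15 of the 26 windows of these genes (57.7%) and in 20.8% of all 32851 windows, and by gene in 13 of 15 (86.7%) against 23% of all genes. The whole element occurred in 2 genes of the list, Btg2 and Dusp1 (13.3%), and in 2.03% of all genes. The window of Fosl2 held neither, and Arc was among the genes without a matched window. A match of letters does not show binding.

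Junb (chr8:84974484-84978718, minus strand), an AP-1 subunit gene, was at 56.7, 75.4 and 94.8 CPM in WT-Veh and at 80.4, 74.4 and 83.2 CPM in WT-Nut3. It was at 86.9, 87.3 and 107 CPM in KO-Veh and at 63.2, 77.4 and 59.0 CPM in KO-Nut3, an interaction of -0.56 ± 0.21 (unadjusted P = 0.0183). The KO groups did not overlap, and WT-Veh held the lowest of the 12 libraries. Arc (chr15:74669083-74672570, minus strand), which codes for a postsynaptic protein that removes AMPA receptors and whose mRNA is a target of FMRP, was at 91.7, 153 and 207 CPM in WT-Veh and at 158, 163 and 184 CPM in WT-Nut3. It was at 201, 232 and 270 CPM in KO-Veh and at 155, 187 and 123 CPM in KO-Nut3, and its interaction was -0.76 ± 0.31 (unadjusted P = 0.0265). The pattern of Arc was that of Junb, with the KO groups apart and the WT groups overlapping. The neuronal factor gene Npas4 had -1.15 ± 0.48, the zinc finger factor gene Egr4 -0.74 ± 0.33 and the AP-1 gene Fosl2 -0.43 ± 0.20, while the best-known member, Fos, had -0.74 ± 0.56 with an unadjusted P of 0.209. Egr4 had -0.47 without KO-Veh RH16, Fosl2 -0.27 without KO-Nut3 RH6, and Fos -0.38 without WT-Veh RH2 and -1.38 without WT-Veh RH15. The list median stayed between -0.68 and -0.37 with each library left out, and was -0.73 with both scores as terms. Percentages below are shares of all genes tested in the same fit, in the negative direction. Without KO-Veh RH16, the library highest in these genes among KO-Veh, 0 members were at an unadjusted P under 0.05 (1.3%). Without WT-Veh RH15, the highest of WT-Veh, 13 were (1.66%). Without KO-Nut3 RH8 10 were (2.03%), and without WT-Nut3 RH9 3 (1.07%). There were 2 without WT-Veh RH2 (1.46%), WT-Veh RH5 (1.17%), WT-Nut3 RH14 (1.08%) or KO-Nut3 RH13 (1.9%). With robust dispersion 0 were (1.21%), and without the 3 libraries highest in choroid plexus genes the median was -0.33 with 0 (1.25%).

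**Figure D4:**
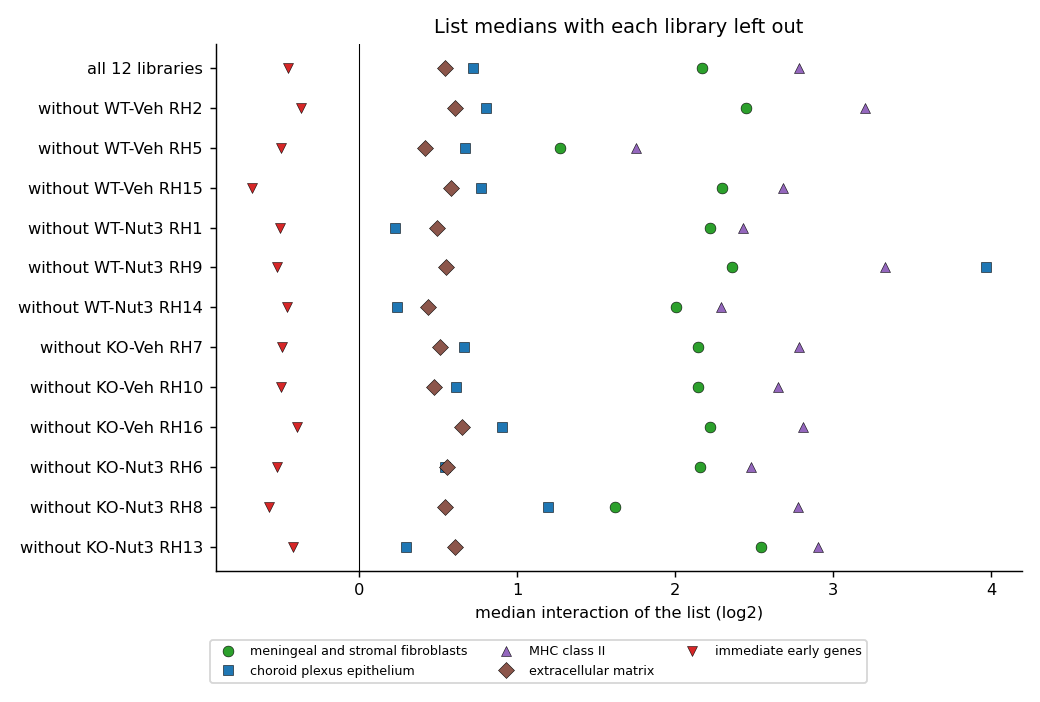
Median interaction on the log2 scale (horizontal axis) of 5 gene lists with all 12 libraries and with each library left out (vertical axis). Fibroblast and MHC class II medians drop to 1.27 and 1.75 without WT-Veh RH5, the choroid plexus median rises to 3.97 without WT-Nut3 RH9, and the immediate early median stays below 0 throughout.

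Gm21887, also listed as Erdr1, at chrX:170009659-170019281 (mm10, GENCODE M21), had the largest negative value. It was at 0.06, 0.21 and 0 CPM in WT-Veh (1, 4 and 0 reads), and at 0.05, 28.9 and 18.4 CPM in WT-Nut3 (1, 582 and 329 reads). It was at 9.96, 11.9 and 13.8 CPM in KO-Veh (193, 211 and 243 reads) and at 0.33, 0 and 0.22 CPM in KO-Nut3 (6, 0 and 4 reads). Libraries were either near 0 or at 9.96 CPM and above, and within WT-Nut3 both kinds occurred. The interaction was -13.29 ± 1.89 (unadjusted P = 5.6e-06, adjusted P = 0.126). Because several libraries hold few or no reads, this fitted value depends on the prior count and is no measure of fold. The adjusted P was 0.000214 in DESeq2 and 4.91e-07 in edgeR without WT-Nut3 RH1, the WT-Nut3 library with 1 read, and 0.977 in limma-voom. The locus lies in the region that X and Y share, where reads from near-identical copies cannot be told apart.

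Of genes of the p53 axis, Mdm2 had -0.09 ± 0.11 (95% interval -0.34 to 0.15), the p53 gene Trp53 0.02 ± 0.10 (-0.19 to 0.24), and Cdkn1a, the p53 target that codes for the cell cycle inhibitor p21, 0.02 ± 0.39 (-0.81 to 0.84). The histone deacetylase gene Hdac1 had -0.11 ± 0.11 and the acetyltransferase gene Ep300 -0.03 ± 0.08. With each library left out, Mdm2 ran from -0.18 (without KO-Veh RH16) to -0.033 (without WT-Nut3 RH9), Hdac1 reached -0.054 (without KO-Veh RH7), and Trp53, Cdkn1a and Ep300 took either sign. Mdm2 lay between 52.4 and 65.6 CPM in WT and between 52.0 and 62.6 CPM in KO, and the groups overlapped in both genotypes. Of 30 p53 target genes 15 were positive and 15 negative with a median of 0.0015 (-0.062 without WT-Veh RH15), and Perp, a junction protein gene also active in epithelia, was the 1 at an unadjusted P under 0.05, a threshold passed in the positive direction by 2.9% of all genes tested (1.32 ± 0.55, 95% interval 0.14 to 2.50, and 2.05 without WT-Nut3 RH9). Perp was highest, from 5.79 to 10.2 CPM, in KO-Nut3 and at 8.94 CPM in WT-Nut3 RH9, the libraries high in choroid plexus genes. Of 16 Mdm2 and p53 regulators 0 were at that threshold, with a median of -0.03 (-0.084 without WT-Nut3 RH1).

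Adult neurogenesis genes were split, 10 positive and 10 negative of 20, with a median of 0.03 (-0.080 without KO-Nut3 RH6 and 0.097 without KO-Veh RH7) and 2 negative at an unadjusted P under 0.05, where 1.27% of all genes tested were. Sox4, a factor of newborn neurons, was at 24.96, 26.1 and 25.9 CPM in WT-Veh, 29.7, 28.7 and 28.9 CPM in WT-Nut3, 29.2, 28.2 and 26.5 CPM in KO-Veh and 26.6, 26.9 and 23.8 CPM in KO-Nut3. WT-Nut3 lay above WT-Veh without overlap and the KO groups overlapped, an interaction of -0.30 ± 0.10 (unadjusted P = 0.0107). Neurog2, a proneural factor, was at 1.19, 1.89 and 0.93 CPM in WT-Veh, 1.78, 1.89 and 1.12 CPM in WT-Nut3, 0.62, 0.96 and 1.03 CPM in KO-Veh and 0.33, 0.23 and 0.55 CPM in KO-Nut3. All KO-Nut3 values lay below all others, and the interaction was -1.46 ± 0.55 (unadjusted P = 0.0191).

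The remaining lists had at most 1 member at an unadjusted P under 0.05, where 2.9% of all genes tested were positive and 1.27% negative. Of 27 FMRP target mRNAs Arc was that one, with a median of -0.06, and of 10 genes of the FMR1 family and its partners there was none, with a median of -0.06. Of 12 interferon-stimulated genes it was the antiviral membrane protein gene Ifitm3 (0.71 ± 0.31, and 0.44 without KO-Nut3 RH8), with a median of 0.23. The thalamus list had a median of 0.65 over 8 genes, all positive, led by the factor gene Tcf7l2 (1.33 ± 0.71) and by Slc17a6 (1.78 ± 1.05). Without KO-Nut3 RH6 the median was 0.056, with 0.026 for Tcf7l2 and -0.54 for Slc17a6. CA pyramidal genes had a median of -0.19 over 9 genes, and -0.034 without KO-Nut3 RH6, and dentate granule genes had -0.16 over 11, which was -0.015 without WT-Veh RH5 and -0.27 without WT-Veh RH2. Medians were 0.07 for 10 astrocyte genes, -0.06 for 12 oligodendrocyte genes, -0.02 for 8 pan-neuronal genes, -0.14 for 9 interneuron genes, -0.10 for 12 ependymal genes and 0.30 for 5 hemoglobin and blood genes. They were 0.04 for 13 circadian clock genes, -0.03 for 15 heat shock and unfolded protein response genes and -0.0024 for 5 sex-linked genes. These medians moved with single libraries. Oligodendrocyte genes had -0.26 without WT-Veh RH15 and 0.060 without WT-Veh RH2, and astrocyte genes 0.013 without WT-Veh RH15. Ependymal genes had -0.40 without WT-Nut3 RH1 and 0.19 without KO-Veh RH16, and the clock list -0.058 without WT-Nut3 RH1. Heat shock genes had -0.15 without KO-Veh RH7 and 0.053 without KO-Veh RH10, the sex-linked genes -0.066 without KO-Nut3 RH13 and 0.084 without WT-Nut3 RH9, and the blood list -0.068 without KO-Nut3 RH6. Without KO-Nut3 RH6 FMRP targets had -0.019, the FMR1 family -0.017 and pan-neuronal genes 0.0025. FMRP targets had -0.10 and pan-neuronal genes -0.060 without WT-Veh RH2. Interneuron genes had -0.056 and interferon-stimulated genes 0.55 without KO-Veh RH16.

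Opposed changes without overlap were rare. In 50 genes (0.221%) the KO-Nut3 libraries all exceeded the KO-Veh libraries while the WT-Nut3 libraries all lay under the WT-Veh libraries, and in 25 genes (0.111%) the reverse held. These counts grow with fewer libraries, to between 80 and 151 and between 50 and 92 with any 1 left out. The largest of the first kind at 1 CPM or more were the little-studied Gm10167 (1.38 ± 0.38), AC132253.6 (1.21 ± 0.42), 6430571L13Rik (1.19 ± 0.32), D830030K20Rik (1.01 ± 0.33), Gm5069 (0.93 ± 0.29), Gm12592 (0.82 ± 0.28) and Gm5067 (0.82 ± 0.36), with the cilium gene Ccdc96 (0.91 ± 0.28). Of these, Gm10167, Gm5069 and Gm5067 are annotated as processed pseudogenes, so some of their reads may come from their parent genes. Of the second kind, Fam57a, a TLC domain gene, was at 14.2, 13.9 and 14.1 CPM in WT-Veh, 16.9, 15.6 and 16.5 CPM in WT-Nut3, 17.7, 16.8 and 21.5 CPM in KO-Veh and 13.1, 15.9 and 14.9 CPM in KO-Nut3. Its interaction was -0.57 ± 0.16 (unadjusted P = 0.00266), between -0.63 and -0.45 in all alternatives. Rmi1, a subunit of the complex that dissolves recombination intermediates, was at 10.6, 11.3 and 10.9 CPM in WT-Veh, 11.6, 13.5 and 12.7 CPM in WT-Nut3, 12.6, 13.1 and 13.6 CPM in KO-Veh and 10.5, 11.2 and 10.4 CPM in KO-Nut3. For both genes the vehicle groups were apart, KO above WT, and KO-Nut3 overlapped WT-Veh. Others of this kind were Pabpc5 (-0.82 ± 0.29), Rad54b (-0.66 ± 0.33), Rpl13a (-0.56 ± 0.24), Ccdc115 (-0.36 ± 0.13), the autophagy gene Atg5 (-0.31 ± 0.12) and the centrosome gene Sfi1 (-0.27 ± 0.10). Rpl13a has many pseudogenes, and its counts are uncertain.

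Negative genes named for their P-values mostly had small values. They were the transporter-like gene Mfsd13a (-0.34 ± 0.10), the microtubule nucleation gene Mzt1 (-0.25 ± 0.08), the histone demethylase gene Kdm5b (-0.23 ± 0.07), the homeobox gene Zfhx2 (-0.25 ± 0.08), the mRNA export factor gene Rae1 (-0.27 ± 0.09), the noncoding C030018K13Rik (-0.93 ± 0.32), the adaptor gene Ap3s1 (-0.29 ± 0.10) and the Argonaute gene Ago2 (-0.28 ± 0.10). Kdm5b was at 86.0, 85.3 and 84.1 CPM in WT-Veh, 87.5, 88.5 and 88.8 CPM in WT-Nut3, 94.8, 94.9 and 92.3 CPM in KO-Veh and 80.5, 87.8 and 80.7 CPM in KO-Nut3. The KO groups were apart by more than the WT groups, which did not overlap either. Except in C030018K13Rik, KO-Nut3 lay below KO-Veh without overlap in each of these genes.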

How the data were processed

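Poly(A) RNA of hippocampus was sequenced in 12 libraries, and the labels call them single reads while the methods describe paired-end sequencing. The authors mapped reads to mm10 with STAR, per the submitters' processing notes, and deposited raw counts of reads per gene, with no normalization. The unstranded column was taken here, since either strand held close to equal shares, so reads of a gene and its antisense partner cannot be told apart. Reads that STAR assigned to no gene were left out of library sizes. Total reads ranged from 21772933 to 25498894. Multimapping reads ran from 3.07% to 3.22% in libraries up to RH8 and from 3.33% to 3.55% in those from RH9. The latter were WT-Veh RH15, WT-Nut3 RH9 and RH14, KO-Veh RH10 and RH16, and KO-Nut3 RH13, so the groups were spread unevenly over these blocks. The labels do not state whether the blocks were handled apart.

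Genes with more than 20 counts in total were fitted in all 12 libraries with TMM factors and edgeR 4.0.16 (R 4.3.3), quasi-likelihood test, two-sided, with a threshold of 0.05 after Benjamini-Hochberg adjustment. The SE is the log2 value divided by the square root of F, and intervals are at 95%. The floor is 3 counts, reached when none of a group's libraries exceeds it. The 28 gene lists, the members and the tests were chosen with earlier results of these data known. List scores are mean log2 CPM with a prior count of 1. Names and coordinates are from GENCODE M21, which matched 55240 of the 55421 genes, and promoters are from RefSeq on GRCm38.p6. Genes were named by 4 rules, those with the smallest P-values per direction, the largest opposed values, genes the study followed, and per list the members with the smallest P-values or most reads, of which the text gives a part. Outside these, Npas4, Egr4, Fosl2, Fos, Bmp4, Bmp5, Bmp7, Eng, Acvrl1, Dab2, Id3, Fmod, Col1a2, Slc47a1, H2-Aa, H2-Eb1, H2-DMb1, Ciita, Slco1a4, Kdr, Abcb1a and Igfbp2 were picked after their values were known. Alternatives were DESeq2 1.42.0, limma-voom (limma 3.58.1), DESeq2 size factors, 2 filters on low counts, robust dispersion, the library number block, list scores as terms, and leaving libraries out. The fit was tested on simulated data in which genes varied independently. That test does not cover single libraries high in whole gene lists, as seen here. Intervals and floors cover counting error and the spread between libraries only.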

Additional observations from a re-analysis of the deposited data

Results flagged for a closer look

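In 18 of the named genes every KO-Nut3 library lay on one side of every KO-Veh library and every WT-Nut3 library on the opposite side of WT-Veh. The interaction of each was tested in the fit over all genes and none passed the adjusted threshold. KO-Nut3 was higher and WT-Nut3 lower for Gm10167 (interaction 1.38), AC132253.6 (1.21), 6430571L13Rik (1.19), D830030K20Rik (1.01), Gm5069 (0.93), Ccdc96 (0.91), Gm12592 (0.82), Gm5067 (0.82) and Pecam1 (0.47). KO-Nut3 was lower and WT-Nut3 higher for Pabpc5 (-0.82), Rad54b (-0.66), Fam57a (-0.57), Rpl13a (-0.56), Rmi1 (-0.49), Ccdc115 (-0.36), Atg5 (-0.31), Sfi1 (-0.27) and Kdm5b (-0.23). All of these 18 were named through rules that used the P-value of this contrast or the opposed pattern itself, so their pattern is a description. Of all genes tested, 0.221% were opposed with KO up and 0.111% with KO down. With 3 libraries in each group such patterns can also arise without any effect of treatment, and how often was not tested.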

How the results depend on the processing

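No paired analysis was possible because the library numbers are not shared between groups. The interaction count past the adjusted threshold was 0 in all alternatives but 5. It was 1 in DESeq2, with a term for the choroid plexus score, with terms for both the choroid plexus and fibroblast scores, and without WT-Nut3 RH1 (range 0 to 1 with each library left out), each time Gm21887 (adjusted P in edgeR with the scores 0.0346 and 0.0476), which was also past it with all genes. With all genes of at least 1 count it was 291, with 1913 genes at an unadjusted P under 0.05, 257 of the 291 positive. In that fit the median degrees of freedom were 287440 against 14.2, and genes with an unadjusted P up to 0.517 otherwise were among the 291. Without each library the unadjusted count ran from 693 to 1275. The share of positive genes was 69.6%, 48.1% with both scores as terms and 56.4% without WT-Veh RH5 and KO-Nut3 RH8.

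For the change in KO, 945 and 3080 genes passed the adjusted and unadjusted thresholds with all genes, and 228 and 1271 for the change in WT. The unadjusted KO count was 779 with the choroid plexus score, 710 with both scores and 1309 to 2580 with each library left out, where the adjusted count ran from 0 to 107. The adjusted WT count was 5 with the number block as a term, 4 with both scores and 0 to 1 with each library left out. Opposed genes with KO up numbered 80 to 151 with each library left out, and those with KO down 50 to 92, and 16 under filterByExpr. Leaving out several libraries at once was chosen after seeing the data. Without WT-Veh RH5 and KO-Nut3 RH8 there were 165 and 156 opposed genes, and without WT-Nut3 RH9, KO-Nut3 RH6 and KO-Nut3 RH13 there were 515 and 347, with 16 adjusted and 1046 unadjusted genes in KO.

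With both scores as terms list medians were -0.024 for fibroblasts, 0.13 for mural cells, 0.63 for blood, 0.065 for pan-neuronal genes, 0.15 for dentate granule neurons, -0.058 for interneurons, -0.064 for the IGF system, 0.042 for extracellular matrix, 0.0019 for FMRP targets, 0.035 for the FMR1 family, 0.49 for MHC class II and -0.13 for the clock. With the number block they were 0.28 for endothelium and -0.087 for interneurons, and with the choroid plexus score -0.030 for interneurons. Without WT-Veh RH5 and KO-Nut3 RH8 they were 0.91 for fibroblasts, 0.11 for mural cells, -0.21 for interneurons and 1.76 for MHC class II. Without the 3 libraries highest in choroid plexus genes they were 2.98 for fibroblasts, -0.37 for blood and -0.029 for astrocytes. With each library left out, the medians ran from 1.27 to 2.54 for fibroblasts, 1.75 to 3.33 for MHC class II, 0.23 to 3.97 for choroid plexus, -0.23 to -0.056 for interneurons, 0.32 to 0.48 for endothelium, 0.062 to 0.55 for interferon-stimulated genes, -0.068 to 0.54 for blood, -0.33 to -0.034 for CA pyramidal neurons, -0.27 to -0.015 for dentate granule neurons, 0.026 to 0.14 for TGF-beta and BMP genes, -0.40 to 0.19 for ependyma and 0.056 to 0.89 for thalamus.

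Of single genes, these changed sign. With both scores as terms Fmr1 had 0.058, Ttr -0.19, Cdkn1a -0.088, Angptl2 -0.49, Igf2 -0.55, Timp3 -0.049, Fmod -0.35, Col1a2 -0.10, H2-Eb1 -0.041, H2-DMa 0.016, Slc13a4 -0.031, Bmp5 -0.028 and Bmp7 -0.57. With the choroid plexus score Cdkn1a had -0.10, Aqp1 -0.12 and Enpp2 -0.35. Cdkn1a had -0.063 in limma-voom and -0.000847 with all genes, and Trp53 -0.0096 with the number block. With each library left out, Cdkn1a ran from -0.44 to 0.19, Trp53 from -0.017 to 0.057, Ttr from -0.22 to 6.93 (without WT-Nut3 RH9), Slc17a6 from -0.54 (without KO-Nut3 RH6) to 2.27, Dcn from -0.39 to 0.24, H2-DMa from -0.13 to 0.017 and Ep300 from -0.080 to 0.0036. Without WT-Veh RH5 and KO-Nut3 RH8 Fmr1 had 0.00883, and without the 3 libraries highest in choroid plexus genes Ep300 had 0.012, Dcn 0.57, H2-DMa 0.033 and Slc17a6 -0.81. The cause of these shifts was not tested. At a median SE of 0.159 the data limit what can be told apart for a gene at 1 CPM or more, and lists of choroid plexus genes far more.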
